A study of Mus musculus with 18 samples.

Results

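Erythroid progenitors are the cells of the bone marrow (BM) that have entered the path to red blood cells but do not yet carry the Ter119 antigen. They were taken here as hematopoietic progenitor (HP) cells with at least 3 unique molecular identifiers (UMIs, one per captured transcript molecule) of Klf1 and 0 UMIs of Gp9. Klf1 encodes a transcription factor of the red cell lineage, and Gp9 encodes a subunit of the platelet receptor for von Willebrand factor, so the second condition leaves out cells with that megakaryocytic transcript. The rule held for 991 of the 15670 HP cells from embryonic day 18.5 (E18.5), the day of birth (P0) and the adult, out of 20982 HP cells and 56201 cells in the whole series. They are called erythroid cells below, and the cells that failed the rule are called other HP cells.

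All mice were of the C57B6/J strain, with no transgene or treatment named in the labels, and adult age was not given there. HP cells were sorted as CD45+ lineage- Kit+ cells, with Ter119 among the lineage antigens, and stromal cells of the same BM were not used here. For each of these 3 stages a single library was made from a pool of several mice, as a single cell 3' library with antibody tags read on the same cells (CITE-Seq). Per the study's methods, adult marrow came from leg bones, pelvis and spine with red cell lysis, and fetal marrow from the skeleton without it. Stage, library, pool and preparation therefore cannot be told apart. No difference between stages was tested, and the intervals in parentheses are exact 95% intervals that cover counting error only.

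Red cells form in steps, from a progenitor that divides under erythropoietin to erythroblasts that fill with hemoglobin. GATA1, with its partners FOG1, TAL1 and LMO2, and KLF1 turn on the genes of heme synthesis, iron uptake, the red cell membrane and, last, the globins. In the mouse the fetal liver is the main site of red cell production before birth, and the BM takes over this role around and after birth. Ter119 marks the later, hemoglobin-rich cells, and the sort was meant to leave these out.

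At E18.5, 120 of 3477 HP cells passed the rule (3.45%, 2.87 to 4.11). At P0 there were 554 of 6208 (8.92%, 8.23 to 9.66), and in the adult 317 of 5985 (5.30%, 4.74 to 5.89). For reference, 1 of 560 and 3 of 4752 HP cells passed in the 2 libraries from E16.5. These 4 cells were in the deposited clusters coded TCell2, TCell3 and Eos/Bas1. No E16.5 cluster was given an erythroid name in the study, so these codes do not tell whether the 4 cells were erythroid. The exclusion on Gp9 removed 32, 63 and 47 further cells with at least 3 Klf1 UMIs at E18.5, P0 and in the adult, and values below are given in this order of stages.

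The order of these shares changed with the cells counted and their depth. The median erythroid cell held 51823, 36519.5 and 29344 UMIs, and the median other HP cell 11233, 18272.5 and 6148.5. Among cells with at least 15000 UMIs, with no thinning, 120 of 1605, 545 of 4077 and 298 of 1519 passed, so the adult had the highest share. When these cells were thinned to 15000 before the rule was applied, 33 of 1605 (2.06%), 214 of 4077 (5.25%) and 179 of 1519 (11.8%) passed. The adult was again highest, and thinning to 5000 UMIs with 1 Klf1 UMI asked gave 4.80%, 8.15% and 10.1%. E18.5 was lowest each time among the cells kept. The authors removed the deepest cells of each library, and E18.5 erythroid cells reach 68530 UMIs beside a highest HP cell of 68802. How many erythroid cells were lost in this way is not known. The order of P0 and adult was not set by these data.

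Cells just outside and just inside the threshold had similar Epor. Epor, the erythropoietin receptor gene, stood at 20.1, 43.4 and 60.4 UMIs per 1000000 UMIs (CPM) in the 41, 193 and 94 cells with 2 Klf1 UMIs, just outside. In the 21, 155 and 70 cells with 3, just inside, it stood at 25.02, 48.2 and 58.5. Cells with 5 or more had 62.9, 73.7 and 76.9 CPM. Within the erythroid cells the median number of Klf1 UMIs was 6, 5 and 5, and the highest was 17, 17 and 16.

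The deposited cluster codes, which the rule did not use, placed most erythroid cells in clusters with an erythroid name. These were 101 of 120 cells at E18.5 (84.2%, in EryP/MegP), 354 of 554 at P0 (63.9%, in EryP1) and 297 of 317 in the adult (93.7%, in EryP2). A further 139 P0 cells (25.1%) were in MegP1, and 19 adult cells in MegP2. The E18.5 code joins erythroid and megakaryocyte names, while P0 and adult have separate MegP codes. Erythroid-named sets are therefore not alike, and a difference between E18.5 and P0 there cannot be told apart from how clusters were split. The remaining 19 cells at E18.5 (15.8%) were nearly all in Eos/Bas2, and 35 of the remaining 61 at P0 (11.0%) in Bas2. In turn, 104, 111 and 177 cells of EryP/MegP, EryP1 and EryP2 failed the rule and count among the other HP cells. In the adult the 177 cells held 90.3% of the Hbb-bt UMIs found in other HP cells, so the adult comparison with other HP cells is not one with cells free of erythroid transcripts.

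The cells in basophil and similar codes carried the genes of those codes. At E18.5 the 19 cells had 6.33 CPM of Epor and 71.8 CPM of Klf1, against 59.7 and 147 CPM in the 101 cells of the erythroid cluster. Ms4a2, a chain of the high-affinity IgE receptor of mast cells and basophils, was at 327 against 6.39 CPM. Mpo, the myeloperoxidase of neutrophil precursors, was at 1355 against 26.9 CPM. The rule thus took in some cells that are not erythroid by these genes, mainly at E18.5 and P0, and values for the erythroid-named clusters alone are given below for some of the genes that these cells touch.

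Erythroid marker genes that the rule did not use were present in each library. Gata1 was at 86.4, 85.4 and 78.4 CPM in erythroid cells and at 17.3, 21.4 and 12.8 CPM in other HP cells. Epor was at 51.4, 64.2 and 70.0 CPM against 4.27, 9.15 and 7.96. Ermap, which encodes a red cell adhesion protein, was at 149.7, 224 and 258 CPM against 4.41, 17.7 and 27.0. These genes were higher in the erythroid cells of all 3 libraries. With the rule applied at 15000 UMIs per cell, Epor in erythroid cells was at 84.8, 67.0 and 77.5 CPM, so its order of stages changed. Gata1 was then at 111, 90.3 and 74.9 CPM. The 3 Klf1 UMIs of the rule ask a lower CPM in deeper cells, and E18.5 cells were deepest, so orders of stages below carry this limit. Cnrip1, listed among the markers, went the other way, with 1.47, 1.57 and 0 CPM against 13.8, 16.9 and 3.07.

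**Figure D1:**
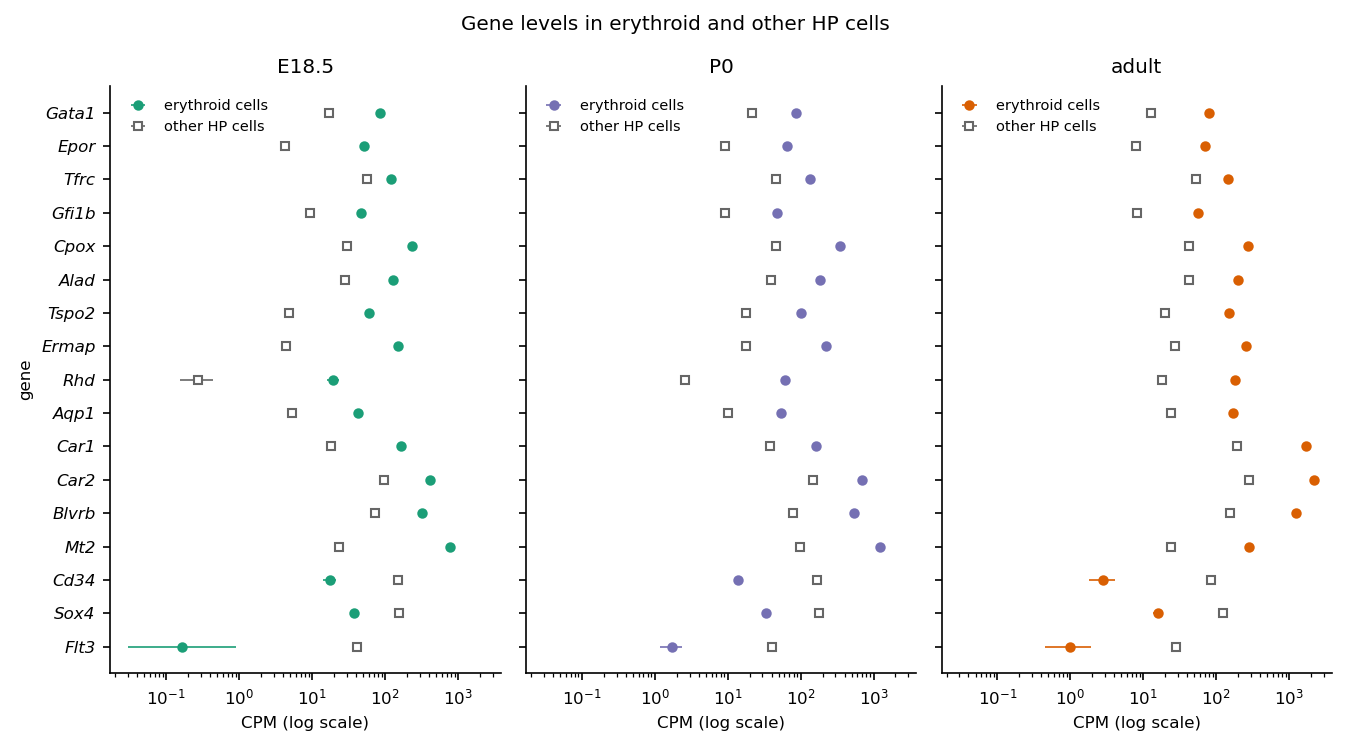
CPM (log scale) of 17 genes in erythroid cells (filled circles) and other HP cells (open squares) of the E18.5, P0 and adult libraries, with exact Poisson 95% intervals, which are mostly smaller than the symbols. Gata1, Epor and the other red cell genes lie to the right in erythroid cells of each library, and Cd34, Sox4 and Flt3 to the left.

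Among 10541 genes compared within each library, 169 (1.6%) were at least 2-fold higher and 1936 (18.4%) at least 2-fold lower in erythroid than in other HP cells of all 3 libraries, with Klf1 and Gp9 left out. Since the cells were chosen on transcripts of the same cells, this contrast is a description. The other HP cells hold more UMIs in all, so that low genes can enter the lower count more easily, and against other cells of matched depth the counts were 165 and 1136. Under the rule at 15000 UMIs they were 37 and 1168, and that setting keeps 33, 214 and 179 erythroid cells, so fewer genes reach the minimum of 50 UMIs. Of the red cell lists, 18 of 24 early erythroid genes, 11 of 17 membrane genes, 7 of 15 heme synthesis genes and 5 of 19 transcription factors were among the higher genes. Cnrip1, Alas1 and Mycn of these lists were among the lower. Also higher were 4 of 15 iron, 4 of 9 late maturation and 2 of 14 erythropoietin signalling genes, with 1, 1 and 2 lower. Of 43 S phase genes and 20 glycolysis genes, 0 were apart either way. Markers of other lineages can reach 50 UMIs through the other HP cells alone, so their sums are given in place of counts. B lineage markers summed to 12.4, 13.0 and 28.5 CPM in erythroid and 664, 602 and 1513 CPM in other HP cells. T lineage markers summed to 11.1, 12.1 and 4.64 against 145, 89.2 and 30.6 CPM. Monocyte markers summed to 83.0, 119 and 22.8 against 1587, 538 and 579 CPM. Those of stem cell, mast cell and neutrophil genes are given below.

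Of the 15 genes above 100 CPM with the largest lowest ratio over the 3 libraries, Klf1, which the rule used, was first, then Mt2, Ermap and Cpox. Mt2, a metal-binding metallothionein, was 33.1, 12.7 and 12.0 times the level in other HP cells, and Ermap 34.0, 12.7 and 9.53 times. Cpox, the coproporphyrinogen oxidase of heme synthesis, was 7.72, 7.51 and 6.39 times, and Alad, which makes porphobilinogen, 4.54, 4.67 and 4.65 times. Car2, the carbonic anhydrase of red cells, was 4.29, 4.68 and 7.83 times and Blvrb, biliverdin reductase B, 4.33, 6.94 and 7.87 times. The others were Car1, Mt1, Gclm, Tnfaip2, Bex4, Pla2g12a, Mrpl52 and Vamp5. Genes lowest relative to other HP cells were markers of other lineages, among them Ebf1, Vpreb3, Elane, Prtn3, Camp and Mcpt8.

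For the 4 genes of the erythroid lists with the largest such ratios and a promoter entry, the 250 bases before the start are shown. Mt2, Ermap and Cpox stood above other HP cells in each library without being used in the rule, while the ratio of Klf1 is fixed by the rule. The sequences are from RefSeq in the build GRCm38.p6, which is mm10, and each is written along the strand of its gene. Capitals mark matches, on either strand, to the GATA motif TGATAA, the CACCC box CCNCNCCC that KLF1 is known to bind, and the metal response core TGCACNC or TGCGCNC.
Klf1, chr8:84901732-84901981, plus strand: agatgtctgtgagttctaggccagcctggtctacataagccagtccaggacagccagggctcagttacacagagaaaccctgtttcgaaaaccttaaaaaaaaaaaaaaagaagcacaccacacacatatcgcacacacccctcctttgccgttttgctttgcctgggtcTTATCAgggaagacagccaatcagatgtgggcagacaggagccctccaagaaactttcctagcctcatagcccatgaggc
Mt2, chr8:94172368-94172617, plus strand: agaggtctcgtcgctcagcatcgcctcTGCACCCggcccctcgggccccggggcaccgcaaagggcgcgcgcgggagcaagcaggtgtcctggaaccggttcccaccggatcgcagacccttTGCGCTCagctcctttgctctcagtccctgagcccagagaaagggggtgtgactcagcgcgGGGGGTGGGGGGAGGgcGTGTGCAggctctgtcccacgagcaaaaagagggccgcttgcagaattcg
Ermap, chr4:119189996-119190245, minus strand: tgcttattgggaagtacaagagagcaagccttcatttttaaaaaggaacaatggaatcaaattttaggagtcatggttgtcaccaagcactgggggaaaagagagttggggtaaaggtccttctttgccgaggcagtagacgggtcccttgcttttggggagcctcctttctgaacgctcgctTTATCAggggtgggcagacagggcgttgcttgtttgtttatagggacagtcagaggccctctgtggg
Cpox, chr16:58669958-58670207, plus strand: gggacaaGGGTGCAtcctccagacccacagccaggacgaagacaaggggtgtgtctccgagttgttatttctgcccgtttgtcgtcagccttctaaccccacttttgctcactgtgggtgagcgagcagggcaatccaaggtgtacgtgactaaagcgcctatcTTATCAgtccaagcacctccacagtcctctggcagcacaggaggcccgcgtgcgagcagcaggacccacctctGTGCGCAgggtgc
TGATAA was found once each before Klf1, Ermap and Cpox, all on the reverse strand and beginning 80, 67 and 86 bases before the start. It is present in 7.94% of the 32851 promoters of this length. The Mt2 window held 3 overlapping CCNCNCCC matches, found in 45.9% of promoters, and 3 metal response cores. TGCACNC is present in 10.4% and TGCGCNC in 12.5% of promoters, and the Cpox window held both. AGATAA, the other GATA motif searched, is present in 9.99% of promoters and in none of these 4 windows. Of 127 genes of the erythroid lists, 96 had an entry. A match of letters is a description and was not tested for binding.

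Fewer genes were apart between the erythroid cells of E18.5 and P0 than between either and the adult. Between P0 and E18.5, 194 of 8611 genes (2.25%) were at least 2-fold higher at P0 and 45 (0.523%) lower. Between adult and P0, 311 of 9355 genes (3.32%) were at least 2-fold higher in the adult and 1750 (18.7%) lower, and between adult and E18.5, 397 of 7973 (4.98%) higher and 1315 (16.5%) lower. A gene was compared if it had at least 50 UMIs in the library where it was higher. A gene low in 1 library could thus enter only through the other, and the list counts below carry the same limit. P0 had the most erythroid UMIs, and with the sums thinned to the total of E18.5 the counts were 89 and 63 for P0 over E18.5, 268 and 1192 for adult over P0 and 338 and 1344 for adult over E18.5. Under the rule at 15000 UMIs they were 199 and 6, 202 and 976, and 284 and 267 in turn. That setting keeps 33, 214 and 179 cells. The minimum of 50 UMIs thus asks a higher CPM at E18.5 than at the other stages. The balance of higher and lower genes against E18.5 therefore cannot be read from that setting. Within erythroid-named clusters they were 186 and 106, 292 and 1347, and 392 and 1162. Those clusters leave out the MegP1 cells at P0, whereas the E18.5 code is joint. The median ratio over all genes was 1.01 for P0 over E18.5 but 0.749 for adult over P0, and list medians are to be read against it. In other HP cells it was 0.870 for adult over P0. These comparisons share libraries, so they are not independent of each other.

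**Figure D2:**
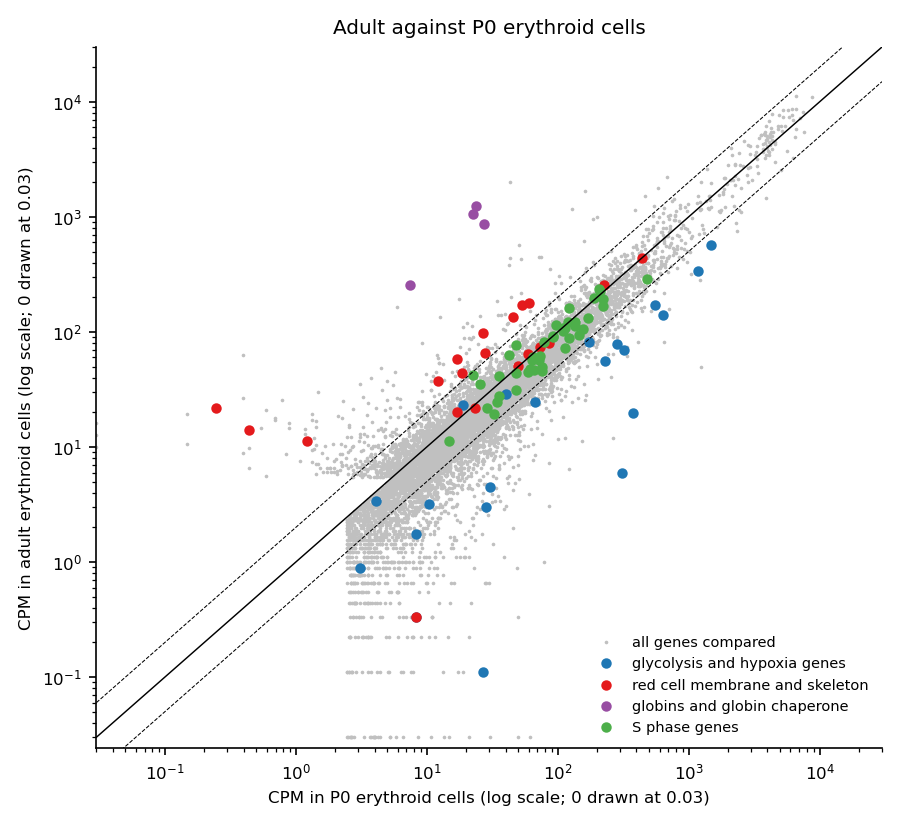
CPM (log scales) in P0 (x axis) and adult (y axis) erythroid cells for the 9355 genes compared, with the solid line at equal levels and dashed lines at 2-fold. Globin genes and most membrane genes lie above the upper line or near it, glycolysis and hypoxia genes lie below the lower line in 18 of 21 cases, and S phase genes lie between the lines.

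Transcription factors of the red cell lineage are given first, and the list includes Klf1, whose level depends on the rule. Of 20 with enough UMIs, 1 was at least 2-fold higher (Sox6) and 2 lower (Gata2 and Myc) in the adult than at P0, against 3.32% and 18.7% of all genes, with a median ratio of 1.02 against 0.749. Tal1, a GATA1 partner, was at 66.9, 56.2 and 87.4 CPM, Zfpm1, which encodes FOG1, at 139, 126 and 125 CPM, and Gfi1b, a repressor needed for red cell and platelet formation, at 46.3, 47.7 and 57.0 CPM. Bcl11a, a silencer of fetal globin genes, was at 203, 194 and 130.1 CPM, and Myb, a factor of dividing progenitors, at 357, 258 and 174 CPM. Both were lowest in the adult. Sox6, which acts with Bcl11a on globin genes, was low throughout, at 1.15, 2.46 and 12.1 CPM, and its ratio of P0 to E18.5 crossed 1, to 0.617, under the rule at 15000 UMIs. That setting keeps 33 cells at E18.5, so this ratio rests on very few UMIs.

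Gata2, the GATA factor of stem cells, mast cells and early erythroid progenitors, was the factor apart in both comparisons of neighbouring stages besides Sox6. It was at 121, 39.6 and 12.8 CPM, 3.06 (2.76 to 3.38) times higher at E18.5 than at P0 and 3.09 (2.54 to 3.79) times higher at P0 than in the adult. Within clusters with an erythroid name it was at 96.5, 19.9 and 10.6 CPM, where the order of stages was the same but P0 and adult were less than 2-fold apart. In the 139 P0 cells of MegP1 it was at 79.9 CPM. Lmo4, an adaptor protein that binds GATA factors, was at 263, 101 and 11.7 CPM and at 112, 47.7 and 11.0 CPM in those clusters.

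In the erythropoietin pathway the receptor gene was less than 2-fold apart between stages. Besides Epor, given above, less than 2-fold apart were Jak2, the kinase bound to the receptor (25.04, 20.9 and 27.5 CPM), and Stat5b, one of its effectors (27.8, 30.3 and 23.5 CPM). Of 14 genes with enough UMIs, 5 were at least 2-fold lower in the adult than at P0 and 0 higher, with a median ratio of 0.750. Over all genes 18.7% were lower and the median was 0.749, so the list as a whole did not stand apart by its median. Those 5 were Cish, Socs2, Pim1, Lyn and Trib3. Pim1, a survival kinase induced by STAT5, was at 52.9, 69.4 and 16.8 CPM, 4.13 (3.49 to 4.92) times higher at P0 than in the adult. Socs2, a feedback inhibitor of the pathway, was at 7.20, 10.9 and 0.331 CPM.

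Kit, the receptor for stem cell factor on which the sort relied, was at 127, 165 and 89.2 CPM. Trib3, a stress-induced pseudokinase, stood at 0.655, 14.6 and 0.221 CPM and was high at P0 alone of the 3 libraries. Asns, the asparagine synthetase gene, likewise was at 114, 236 and 93.8 CPM, 2.07 (1.91 to 2.24) times higher at P0 than at E18.5.

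Heme synthesis genes were at like or higher levels in the adult. Of 15 with enough UMIs, 1 was at least 2-fold higher in the adult than at P0 and 0 lower, against 3.32% and 18.7% of all genes, with a median ratio of 1.11 against 0.749. Between P0 and E18.5, 0 were apart either way, against 2.25% higher and 0.523% lower over all genes. The median there was 1.32 against 1.01. The list took 0.135%, 0.178% and 0.237% of all UMIs of erythroid cells. Uros, which closes the porphyrin ring, was the gene apart, at 10.5, 12.5 and 28.9 CPM. Fech, which inserts iron, was at 38.5, 57.6 and 63.4 CPM, and Tspo2, a porphyrin and cholesterol transport protein of erythroid cells, at 60.5, 101 and 150.4 CPM. Both were lowest at E18.5. Alas2, the erythroid form of the first enzyme, was barely seen, at 0.164, 0.246 and 5.30 CPM, while Alas1, the form of other tissues, was at 20.1, 17.4 and 12.3 CPM.

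Of 15 iron genes, 1 was at least 2-fold higher (Slc40a1, the iron exporter, at 10.6, 18.1 and 37.7 CPM) and 1 lower (Hmox1, which breaks down heme, at 0.982, 2.95 and 0.994 CPM) in the adult than at P0, against 3.32% and 18.7% of all genes, with a median ratio of 0.947 against 0.749. Tfrc, the transferrin receptor, was at 123, 133 and 143 CPM, Slc11a2, which moves iron out of the endosome, at 25.9, 25.9 and 32.1 CPM, and Steap3, the ferrireductase there, at 55.1, 63.9 and 56.3 CPM. The highest of the 3 stages was P0 for Steap3 and the adult for Tfrc and Slc11a2. Glrx5, needed for iron-sulphur clusters, was at 438, 527 and 769.5 CPM. Fth1, the ferritin heavy chain, was at 1784, 2663 and 4533 CPM in erythroid and 1856, 1689 and 1519 CPM in other HP cells, and was highest in adult erythroid cells.

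More membrane and skeleton genes were higher than lower in the adult. Of 22 measured, 20 had enough UMIs, and of these 11 were at least 2-fold higher and 1 lower in the adult than at P0, with a median ratio of 2.35. Over all genes 3.32% were higher and 18.7% lower, with a median of 0.749. At P0, 5 of 17 were higher than at E18.5 and 0 lower, against 2.25% and 0.523% of all genes. Rhd, an Rh blood group protein, was at 19.3, 60.8 and 180.1 CPM, and Aqp1, the water channel, at 43.0, 53.3 and 171 CPM. Sptb and Ank1, for spectrin beta and ankyrin, were at 7.85, 18.7 and 43.6 and at 18.3, 27.8 and 65.8 CPM. Slc4a1, the band 3 anion exchanger, had 0 UMIs at E18.5, 0.246 CPM at P0 and 21.6 CPM in the adult. Slc4a1 and Epb42 were below the UMI minimum at P0, so they could be counted only as higher in the adult. Rhag, the partner of Rhd, and Add2, a spectrin-binding adducin, were lowest at E18.5 and at like levels at P0 and in the adult, at 42.2, 86.0 and 81.0 and 28.8, 59.0 and 64.6 CPM. The gene that was lower was Slc2a1, the glucose transporter GLUT1, at 11.1, 8.25 and 0.331 CPM. Being below the minimum in the adult, it could be counted only as lower there.

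In other HP cells, 11 of 22 membrane genes were at least 2-fold higher and 2 lower in the adult than at P0, with a median of 1.91. Over all 12861 genes compared in other HP cells, 6.69% were higher and 10.3% lower. Those cells include the erythroid-coded cells that failed the rule. Whether the membrane genes differ more in erythroid cells than in the rest was not tested.

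Hbb-bs and Hba-a1 had the largest ratios of adult to P0 erythroid cells among genes above 100 CPM. Hba-a1 stood at 3.76, 22.6 and 1066 CPM, 47.1 (42.9 to 51.9) times higher in the adult than at P0. Hbb-bs, an adult beta globin, stood at 7.04, 23.9 and 1255 CPM, 52.5 (47.9 to 57.6) times higher in the adult, and Hba-a2 and Hbb-bt at 1.80, 7.42 and 254 and 9.65, 27.4 and 864 CPM. All 4 were also higher at P0 than at E18.5, by 2.83 to 6.00 times. Hbb-y, the embryonic beta-like globin, was at 0, 0.0491 and 0.110 CPM. In other HP cells Hba-a1 was at 0.187, 0.672 and 214 CPM and Hbb-bt at 114, 111 and 172 CPM, so Hbb-bt alone of the 4 was below the level of other HP cells at E18.5 and P0. Hba-a1 and Hba-a2, like Hbb-bs and Hbb-bt, are near-identical pairs, and reads may be split between their members.

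The globin UMIs were concentrated in few cells at each stage. In the adult, 252 of 317 erythroid cells (79.5%) had any globin UMI, with a median of 4 and a highest cell of 2625, and 10 cells held 40.6% of the 31139 UMIs. At P0, 308 of 554 cells (55.6%) had any and 10 cells held 46.6% of 1656 UMIs, and at E18.5, 55 of 120 cells (45.8%) had any and 10 cells held 48.5% of 136. For Hba-a1, 109 of 317 adult cells had at least 10 UMIs, against 7 of 554 at P0 and 0 of 120 at E18.5. After thinning to 5000 UMIs, Hba-a1 was seen in 48.7% of adult erythroid cells, against 1.32% of cells in B lineage clusters of that library, the depth being equal by construction, and in 7.40% of P0 and 0.833% of E18.5 erythroid cells. In those B lineage cells the globins summed to 31.8 CPM in the adult, against 3439 CPM in erythroid cells.

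Late maturation genes, a list that shares the 4 globins with the one above, took 0.0267%, 0.0395% and 0.398% of UMIs. Without globin, mitochondrial and ribosomal protein genes the shares were 0.0368%, 0.0473% and 0.0906%. Of 16 genes with enough UMIs, 10 were at least 2-fold higher and 1 lower in the adult than at P0, against 3.32% and 18.7% of all genes, with a median ratio of 3.71 against 0.749. Besides the 4 globins, the 10 include Slc4a1 and Epb42 of the membrane list, and Hemgn and Trim10. Slc4a1, Epb42 and Trim10 had fewer UMIs at P0 than the minimum, so they could enter only as higher in the adult. The count of 10 thus follows in part from the minimum, under which the shares of all genes were also counted. Hemgn, a nuclear protein of erythroblasts, was at 24.1, 37.2 and 141 CPM, Trim10, a ubiquitin ligase of late erythroblasts, at 0.327, 1.18 and 14.2 CPM and Epb42 at 0, 1.23 and 11.4 CPM, the last being the skeleton protein 4.2. Xpo7, an exporter active during nuclear condensation, went the other way, at 20.5, 12.9 and 5.52 CPM.

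Of 24 early erythroid genes, 11 were at least 2-fold higher and 5 lower in the adult than at P0, with a median ratio of 1.47. Over all genes 3.32% were higher and 18.7% lower, so the share lower was near that of all genes. Car1, carbonic anhydrase 1, was at 168, 161 and 1682 CPM, 10.4 (10.0 to 10.8) times higher in the adult, and Car2 at 414, 690.0 and 2206 CPM. Blvrb was at 319, 548 and 1234 CPM and Ctse, a cathepsin of red cell precursors, at 18.5, 12.6 and 134 CPM. C1qtnf12, which was outside the lists, was at 89.0, 158 and 619 CPM. The levels of Car2, Blvrb and C1qtnf12 were highest in the adult and lowest at E18.5.

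The metallothionein genes were among the 5 lower genes. Mt1 was at 1964, 2331 and 748 CPM and Mt2 at 771, 1227 and 282 CPM, 4.35 (4.18 to 4.53) times higher at P0 than in the adult. Other HP cells had 268, 452 and 216 and 23.3, 96.7 and 23.6 CPM. Apoe, a lipid carrier, was at 439, 411 and 81.7 CPM and Muc13 at 29.3, 26.7 and 7.84 CPM, both lowest in the adult. Within erythroid-named clusters Apoe was at 434, 209 and 58.6 CPM. The E18.5 code there is the joint EryP/MegP, while at P0 the MegP1 cells, at 649 CPM, are left out. P0 cells of other codes were at 1224 CPM.

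Glycolysis and hypoxia genes were mostly lower in the adult. Of 21 glycolysis and hypoxia genes with enough UMIs, 18 were at least 2-fold lower in the adult than at P0 and 0 higher, against 18.7% and 3.32% of all genes, with a median ratio of 0.274 against 0.749. Slc2a1 and Egln3, among the 18, had fewer UMIs in the adult than the minimum, so they could enter only as lower there. Between P0 and E18.5, 0 of 19 were apart, against 2.25% higher and 0.523% lower over all genes. The list was there near the share of all genes. In other HP cells 10 of 21 were lower in the adult, against 10.3% of all genes, with a median of 0.532, and the difference between these kinds of cell was not tested. The list took 0.576%, 0.579% and 0.163% of the UMIs of erythroid cells. The medians over cells thinned to 5000 UMIs were 0.56%, 0.56% and 0.16%, with quartiles of 0.46 to 0.66, 0.46 to 0.68 and 0.10 to 0.20. In other HP cells the medians were 0.48%, 0.55% and 0.26%, with quartiles of 0.38 to 0.62, 0.42 to 0.68 and 0.18 to 0.38. The adult was thus lower in both kinds of cell, and cells of a single library are not replicates.

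Pkm, the pyruvate kinase of most tissues, showed the widest difference of a gene above 100 CPM in this list. It was at 326, 308 and 5.96 CPM in erythroid cells and 467, 498 and 265 CPM in other HP cells, so that P0 was 51.7 (39.6 to 68.9) times the adult in erythroid cells. After thinning to 5000 UMIs, 75%, 70.9% and 2.53% of erythroid cells held a Pkm UMI, against 47.0% of adult B lineage cells. Pklr, the pyruvate kinase of liver and red cells, chosen after its values were seen, was at 30.6, 43.0 and 54.9 CPM. Pgam1, phosphoglycerate mutase, was at 394, 377 and 19.7 CPM, 19.2 (16.5 to 22.4) times higher at P0 than in the adult.

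Other genes of the list are given with their levels. Aldoa, an aldolase, was at 625, 635 and 139.8 CPM, Gapdh at 1453, 1485 and 569 CPM and Ldha, lactate dehydrogenase A, at 1205, 1182 and 340.0 CPM. Of the hexokinases, Hk1, the red cell form, was at 177, 174 and 82.1 CPM and Hk2 at 46.1, 28.3 and 2.98 CPM. Egln3, an oxygen-sensing hydroxylase, had 1 UMI in the adult, with levels of 24.9, 27.0 and 0.110 CPM. Pfkm, Pdk1 and Ankrd37 were the 3 genes not 2-fold apart, at 13.9, 18.96 and 23.4, 29.1, 40.0 and 29.2 and 6.05, 4.08 and 3.42 CPM.

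**Figure D3:**
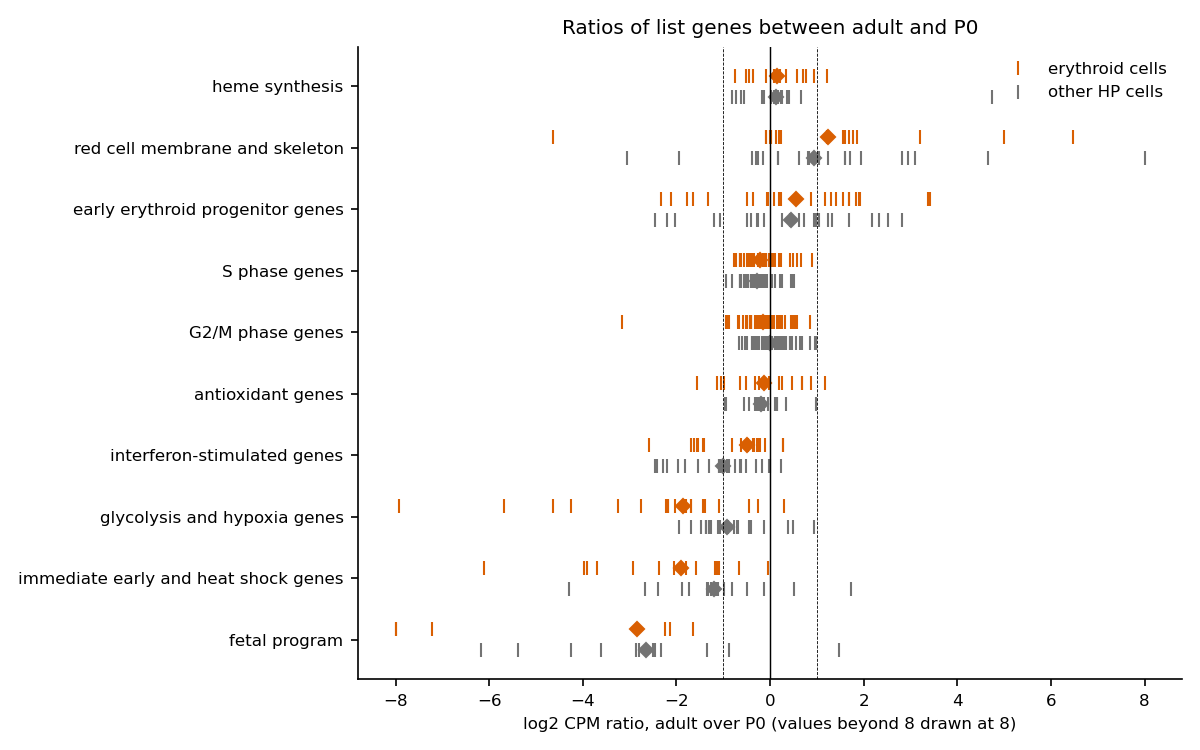
Log2 ratio of adult to P0 CPM for the genes of 10 lists with at least 50 UMIs in the higher library, as ticks, with list medians as diamonds, in erythroid cells (orange) and other HP cells (grey). Dashed lines mark 2-fold, and the glycolysis median lies at a ratio of 0.274 in erythroid and 0.532 in other HP cells.

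Some of the genes outside the lists with the largest ratios of P0 or E18.5 to adult are given here. Over all genes 18.7% were at least 2-fold lower in the adult than at P0. Lgals1, galectin 1, was at 1807, 1238 and 49.9 CPM, 24.8 (22.6 to 27.3) times higher at P0 than in the adult, and Vim, vimentin, at 373, 264 and 12.0 CPM. In erythroid-named clusters Vim was at 332, 117 and 7.39 CPM, and in the P0 cells of MegP1, which are left out there, at 577 CPM. Coro1a, an actin-binding coronin, was at 162, 114 and 12.0 CPM and Nfkbia, the inhibitor of NF-kappaB, at 130.4, 153 and 11.3 CPM. Fkbp11, a prolyl isomerase of the endoplasmic reticulum, was at 109, 123 and 6.41 CPM in erythroid and 39.7, 43.9 and 45.1 CPM in other HP cells. It was thus higher in erythroid cells at E18.5 and P0 and lower in the adult. Fkbp1a was at 106, 86.5 and 7.29 CPM.

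The fetal program genes had a lower summed level in the adult. The 15 measured summed to 253, 215 and 27.4 CPM in erythroid and 441, 395 and 74.2 CPM in other HP cells. In erythroid cells 3, 1 and 8 of them were at 0, and 7 had enough UMIs to be compared between adult and P0. P0 was the higher library for each of the 7, so no count is drawn from them. Lin28b, an RNA-binding protein of fetal progenitors, was at 20.8 and 21.0 CPM and had 0 UMIs in the adult, so that P0 was at least 63.5-fold higher against a floor of 3 UMIs. Hmga2, a chromatin protein downstream of Lin28b, was at 56.5, 49.4 and 0.331 CPM, Igf2bp3, an RNA-binding protein of the same program, at 49.7, 50.01 and 6.96 CPM, and Grb10, an imprinted adaptor, at 76.4, 62.9 and 14.4 CPM.

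Proliferation genes were less than 2-fold apart with few exceptions. Of 43 S phase genes, 0 were at least 2-fold apart between adult and P0, with a median ratio of 0.863, and of 54 G2/M genes, 1 was lower, with a median of 0.899. Over all genes 3.32% were higher and 18.7% lower, with a median of 0.749. S phase genes took 0.463%, 0.448% and 0.393% and G2/M genes 0.848%, 0.857% and 0.826% of UMIs. Hells, a chromatin remodeller in the S phase list, was the 1 gene lower at P0 than at E18.5, at 198, 97.6 and 115 CPM. Over all genes 0.523% were lower at P0 than at E18.5. In thinned cells the median S phase share was 0.48%, 0.44% and 0.38% in erythroid and 0.28%, 0.36% and 0.30% in other HP cells.

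**Figure D4:**
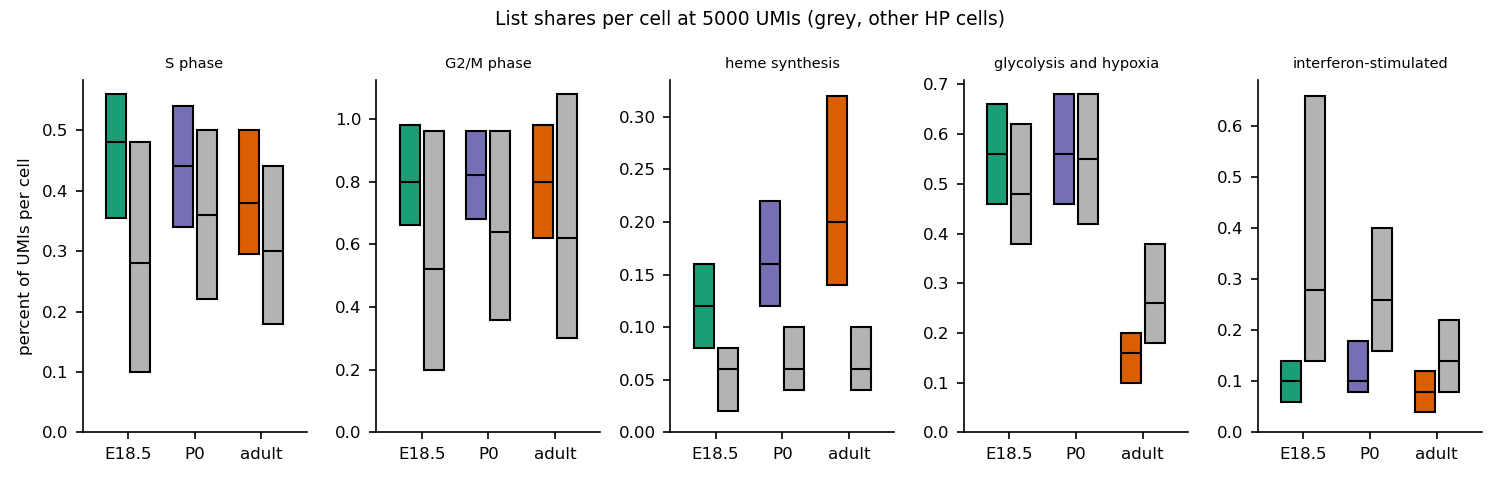
Percent of UMIs from 5 gene lists per cell after thinning to 5000 UMIs, as the median and quartiles over cells, for erythroid cells (coloured) and other HP cells (grey) of each library. The adult glycolysis box (0.10% to 0.20%) lies below those of E18.5 and P0, and the adult box of other HP cells (0.18% to 0.38%) is also the lowest of its kind. Heme synthesis has medians of 0.12%, 0.16% and 0.20%, and G2/M boxes overlap across stages.

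Of 15 immediate early and heat shock genes, 13 were at least 2-fold lower in the adult than at P0, against 18.7% of all genes, with a median ratio of 0.268. In other HP cells 11 of 17 were lower and 1 higher, against 10.3% and 6.69% of all genes, with a median of 0.439. Egr1, an early response factor, was at 64.3, 60.9 and 3.87 CPM, Fos at 43.9, 41.1 and 5.41 CPM and the chaperone gene Hspa8 at 2535, 2499 and 1099 CPM. Such genes respond to the handling of cells, and differences in dissociation and sorting between stages cannot be told apart from stage. Hspa1a and Hspa1b, the inducible HSP70 pair, which are near-identical, were the 2 genes lower at P0 than at E18.5, at 14.4, 0.786 and 0.884 and 17.8, 0.884 and 5.30 CPM. Over all genes 0.523% were lower at P0 than at E18.5.

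Interferon-stimulated genes had a lower summed level in erythroid than in other HP cells. The list took 0.125%, 0.126% and 0.0837% of UMIs in erythroid cells against 0.359%, 0.297% and 0.158% in other HP cells. By count, 5 of 22 were at least 2-fold lower in erythroid cells of all 3 libraries, near the 18.4% of all genes. Of 19 with enough UMIs, 7 were at least 2-fold lower and 0 higher in the adult than at P0, with a median of 0.715, against 18.7% lower and a median of 0.749 over all genes. Between P0 and E18.5, 4 of 20 were higher, against 2.25% of all genes, namely Irf7, Rtp4, Oas1a and Ifi27. Ifi27 was at 20.8, 64.5 and 78.4 CPM, and Ifitm1, an antiviral membrane protein gene, at 199.8, 109 and 18.3 CPM.

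Of 16 antioxidant genes, 1 was at least 2-fold higher and 3 lower in the adult than at P0, with a median ratio of 0.913, the share lower being close to the 18.7% over all genes. Prdx2, the main red cell peroxiredoxin, was at 577, 778 and 1424 CPM and was highest in the adult. Cat, catalase, was at 53.2, 59.6 and 27.1 CPM and Gsr, glutathione reductase, at 90.5, 104 and 49.9 CPM, both lowest there. Gclm, for glutathione synthesis, was at 211, 306 and 351 CPM.

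Markers of other cells were low but not absent. Stem and multipotent progenitor genes summed to 247, 165 and 124 CPM in erythroid and 843, 827 and 503 CPM in other HP cells. Cd34, a surface antigen of early progenitors, was at 17.5, 13.7 and 2.76 CPM, and at 10.7, 7.13 and 2.28 CPM in clusters with an erythroid name. Mllt3, a factor of stem cell upkeep, was highest in the adult, at 19.5, 34.1 and 73.3 CPM.

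Mast cell and basophil markers summed to 1049, 882 and 361 CPM in erythroid and 3649, 3556 and 2071 CPM in other HP cells. Within clusters with an erythroid name Ms4a2 was at 6.39, 8.21 and 0.569 CPM. Megakaryocyte markers other than Gp9 summed to 112, 96.5 and 30.4 CPM, against 508, 281 and 331 CPM in other HP cells. Neutrophil genes summed to 452, 579 and 1447 CPM in erythroid cells and to 8134, 9196 and 56399 CPM in other HP cells. Few cells carried the E18.5 sum, since the 19 cells of basophil and mast cell codes held 1284 Mpo and 498 Ctsg UMIs against 139 and 28 in the 101 cells of the erythroid cluster. In cells of B lineage clusters, which should lack them, they summed to 163, 472 and 3982 CPM.

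S100a8, a neutrophil lineage marker, stood among the genes with the largest adult ratio, with 7.53, 72.6 and 452 CPM in erythroid cells beside 1687, 1382 and 16591 CPM in other HP cells. Camp, a neutrophil granule gene, was at 1.15, 5.90 and 166 CPM beside 169, 188 and 7055. S100a9, the partner of S100a8, was at 7.53, 52.1 and 433 CPM beside 1362, 925 and 16206. All 3 were below their level in other HP cells of each library. The part of RNA free in solution in these values was not tested.

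Lars2, the mitochondrial leucyl-tRNA synthetase gene, and the histone genes Hist1h4h and Hist1h3f were higher in the adult in both kinds of cell. Lars2 was at 98.5, 43.3 and 2027 CPM in erythroid and 138, 50.9 and 3514 CPM in other HP cells, Hist1h4h at 70.9, 50.9 and 571 and 66.1, 43.5 and 544 CPM, and Hist1h3f at 19.96, 17.7 and 194 and 24.4, 18.6 and 173 CPM. These values moved with the library. Between P0 and E18.5 the genes above 100 CPM that were furthest apart further included, with ratios below 2, Col5a1, a collagen chain, at 55.3, 101 and 42.7 CPM, and Gm10076, at 354, 643 and 1075 CPM.

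Those furthest apart the other way included, again with ratios below 2, Cbfa2t3, a corepressor of the GATA1 and TAL1 complex, at 107, 62.0 and 58.6 CPM. The others were Mtf2, Fam111a and Rsrp1, at 106, 63.7 and 41.4, 128, 78.0 and 69.0 and 142, 89.1 and 159 CPM.

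Antibody tags, an independent readout that the rule did not use, were described for 4 of the 29 antibodies. CD48, an adhesion receptor of progenitors, had a median of 152, 92 and 32 raw counts on erythroid cells, with quartiles of 92.25 to 229.25, 42 to 148 and 19 to 66. Other HP cells had medians of 86, 109 and 110. Raw antibody counts depend on how deeply each library was read, so shares above a centered log-ratio (CLR) of 1 within each library are also given. That level is set from all HP cells of a library, so it moves with the other HP cells. Their lower quartile of CD48 was 7, 61 and 44 counts. The shares are thus compared between kinds of cell within a library, and their order across stages cannot be told apart from the moving level. CD48 was above it in 77.5% (69.0 to 84.6), 24.2% (20.7 to 28.0) and 10.1% (7.01 to 14.0) of erythroid cells, and in 51.6%, 31.4% and 40.5% of other HP cells. Erythroid cells were thus above other HP cells at E18.5 and below them at P0 and in the adult. In the erythroid-named clusters alone the shares were 74.3%, 14.1% and 7.74%.

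CD150, a receptor of stem cells and of early erythroid and megakaryocytic progenitors, was above the level in 42.5% (33.5 to 51.9), 28.9% (25.1 to 32.9) and 24.9% (20.3 to 30.1) of erythroid cells, and in 10.3%, 15.4% and 13.8% of other HP cells. In the erythroid-named clusters alone the shares were 50.5%, 17.8% and 21.2%, so the order of P0 and adult was the other way and P0 was near other HP cells. The medians were only 4, 1 and 1 counts. Sca-1, an antigen lost on entry to the erythroid path, was above the level in 0 of 120, 4.69% and 4.42% of erythroid cells, against 17.5%, 25.6% and 21.9% of other HP cells, with an exact interval for 0 of 120 that reaches 3.03%. CD135, the FLT3 receptor of lymphoid-biased progenitors, was above it in 2.50%, 1.26% and 0.946%, against 7.15%, 9.60% and 9.62%.

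**Figure D5:**
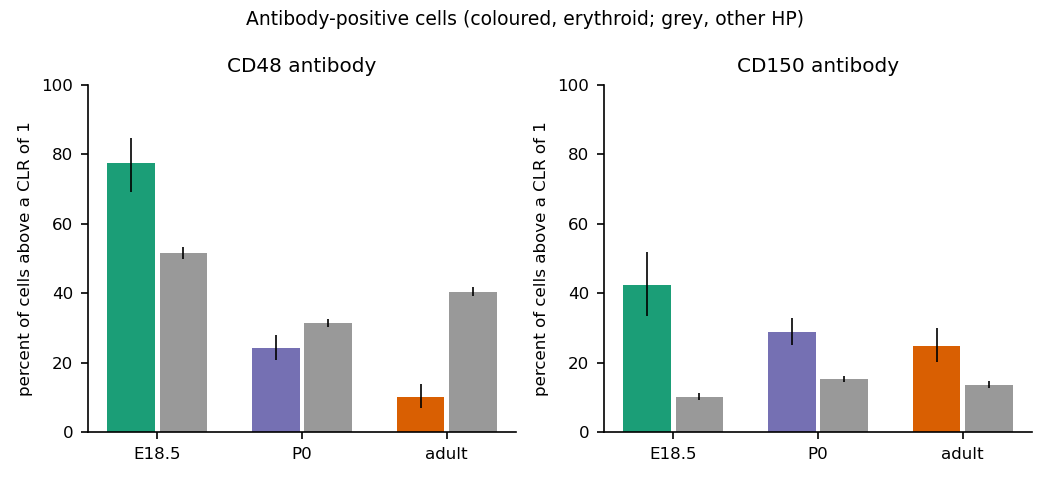
Percent of cells with a centered log-ratio above 1 for the CD48 and CD150 antibodies in erythroid cells (coloured) and other HP cells (grey) of each library, with exact binomial 95% intervals. The level is set within each library, so bars are to be compared within a stage. CD48 is above it in 77.5% of erythroid cells at E18.5 and in 10.1% in the adult. CD150 is above other HP cells at each stage (at P0 28.9% against 15.4%, or 17.8% in the erythroid-named cluster alone).

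Libraries shared 83 cell barcodes between E18.5 and P0, 375 between E18.5 and adult and 225 between P0 and adult, and 0 of these belonged to erythroid cells in both. Across the 3 HP libraries 59206442 to 127489333 UMIs were deposited, of which 6110947, 20355524 and 9054857 were in erythroid cells. The median mitochondrial share was 2.16%, 2.41% and 2.43% in erythroid cells and 2.59%, 2.96% and 2.40% in other HP cells. Doublets were treated only by the upper limits that the authors set on genes and UMIs per cell.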

How the data were processed

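HP cells of BM were profiled by CITE-Seq in 5 libraries, and 1 library each of E18.5, P0 and adult is compared here. Per the labels and the submitters' processing notes, the authors used Cell Ranger 3.1.0, R 4.0 and Seurat 3.1.5 with the mm10 build, filtered cells on genes, UMIs and mitochondrial share, and pooled the HP libraries in 1 table. The deposited values are raw UMI counts per gene, raw antibody counts per cell and the mitochondrial fraction of each cell, printed here as percent. The HP table held 20982 cells and 20275 genes, with 358 to 68802 UMIs per cell and at most 7.50% mitochondrial. The authors' cluster codes were read from the deposited cell table, and 12 other columns of per-sample values were not used.

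UMIs were summed over the erythroid cells and over the other HP cells of each library and divided by the sum's total to give CPM. With 1 library a stage no test was run. CPM have exact Poisson, ratios exact conditional and shares Clopper-Pearson 95% intervals. Genes were counted as apart at 2-fold with at least 50 UMIs in the higher group, and 0 UMIs were set to a floor of 3 for a bound. Klf1 and Gp9 were left out of counts against other HP cells, but not of counts between stages. Cells were thinned to 5000 UMIs, with shallower cells left out (1 erythroid cell, in the adult), or to 15000 for the rule. An antibody was positive above a centered log-ratio of 1 over the HP cells of a library.

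The erythroid cells and gene lists were chosen with earlier results of these data known. Named were genes of the lists, the 8 genes with the largest ratio each way between each pair of stages among those with at least 100 CPM, and the 15 with the largest lowest ratio over other HP cells and the 10 with the largest the other way. Mitochondrial and ribosomal protein genes, Gm42418, Xist and the Y-linked genes Ddx3y, Eif2s3y, Kdm5d and Uty were left out of those. The listed genes Fam64a, Hn1, Mlf1ip, Fam132b, Hbb-bh1, Hba-x, Hbb-bh2, Ahsp, Tent5c and Gp6 were not analysed here, and some other genes are not reported here. Alternatives were other Klf1 thresholds, no Gp9 exclusion, other folds, UMI minimums, denominators and depths, and clusters with an erythroid name. Python 3.11.15, numpy 2.4.6, scipy 1.17.1, pandas 2.3.3 and matplotlib 3.10.9 were used, and the scripts were tested on simulated data.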

Additional observations from a re-analysis of the deposited data

Results flagged for a closer look

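For 6 genes of the lists the ratio of erythroid to other HP cells was at least 2 in 1 library and at most 0.5 in another, and these differences between stages were not tested. Hbb-bt, a beta globin gene, was at a ratio of 5.03 in the adult, 0.0845 at E18.5 and 0.247 at P0. In the other HP cells of E18.5, 70.1% of its UMIs were in cluster HSPC2, where it was at 469.5 CPM, and 24.2% in MyP1. At P0, 42.1% were in HSPC3 and 37.9% in HSPC2, whereas in the adult 90.3% were in the 177 cells of EryP2 that failed the rule. Muc13, a transmembrane mucin gene, was at 2.74 at E18.5 and 0.289 in the adult, where MegP2 held 31.2% and HSPC5 23.9% of its UMIs in other HP cells.

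Trib3, a stress-induced pseudokinase gene, was at a ratio of 4.74 at P0 and 0.463 at E18.5, the latter from 4 UMIs in erythroid cells. Gab1, an adaptor of receptor signalling, was at 2.02 in the adult and 0.478 at E18.5, from 10 UMIs there. Ube2l6, an enzyme that attaches ISG15 and is in the late maturation list, was at 2.13 in the adult and 0.463 at E18.5. Col1a2, a stromal collagen gene, was at 2.04 at P0 and 0.135 in the adult, where erythroid cells had 2 UMIs and 56 cells coded Stroma held 63.4% of the UMIs in other HP cells.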

How the results depend on the processing

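No paired analysis was possible because E18.5, P0 and the adult have 1 HP library each. Without replicates the text's intervals cover counting error only, and the spread between mice is unknown. Of the values that answer a comparison, 92 moved less than that error, or less than 1.5 times for counts, and 106 moved more. Among ratios of single genes 1151 were stable, 440 moved and 27 crossed 1, mostly genes of other lineages. Restriction to clusters with an erythroid name and the rule at 15000 UMIs were chosen after seeing the data. The cause of these shifts was not tested.

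The share of erythroid cells, given for E18.5, P0 and adult, was 4.63%, 12.0% and 6.87% with 2 or more Klf1 UMIs and 2.30%, 4.77% and 3.21% with 5 or more. It was 4.37%, 9.94% and 6.08% with no exclusion on Gp9 and 5.14%, 9.79% and 9.06% among cells with 5000 or more UMIs. Thinned to 5000 UMIs it was 4.80%, 8.15% and 10.1%, and under the rule at 15000 UMIs 2.06%, 5.25% and 11.8%.

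At 3-fold, 67 genes were higher and 9 lower at P0 than at E18.5, 167 higher and 751 lower in the adult than at P0, and 222 higher and 520 lower in the adult than at E18.5. In all 3 libraries 76 were higher and 1283 lower in erythroid than in other HP cells. With 20 UMIs asked, 414 were higher and 107 lower at P0 than at E18.5, and 89 were higher there after sums were thinned to the smallest total. Within erythroid-named clusters 106 were lower at P0 than at E18.5. Under the rule at 15000 UMIs, 6 were lower at P0 than at E18.5, 202 higher and 976 lower in the adult than at P0, and 267 lower in the adult than at E18.5, with 37 higher and 1168 lower in erythroid than in other HP cells. Against other cells of matched depth 1136 were lower. Lower in the adult than at P0 were 10 of 12 mast cell and basophil markers and 7 of 10 stem and multipotent genes in all erythroid cells (18.7% of all genes), 6 and 2 within erythroid-named clusters, and 2 of the latter under the rule at 15000 UMIs, though such genes can reach 50 UMIs through P0 alone. With globin, mitochondrial and ribosomal protein genes out of the denominator, 385 genes were higher and 1364 lower in the adult than at P0.

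List shares of UMIs, in the same order of stages, moved as follows. S phase genes were at 0.48%, 0.44% and 0.38% as the median of thinned cells and 0.696%, 0.675% and 0.658% without globin, mitochondrial and ribosomal protein genes. With 5 or more Klf1 UMIs they were at 0.479% and 0.457% at E18.5 and P0, and at 0.471% and 0.471% within erythroid-named clusters. G2/M genes were at 0.80%, 0.82% and 0.80% thinned, 0.825%, 0.881% and 0.858% with 5 or more Klf1 UMIs, 0.840%, 0.862% and 0.833% within those clusters and 1.28%, 1.29% and 1.38% without the 3 gene classes. Late maturation genes were at 0.02%, 0.02% and 0.06% thinned and 0.0368%, 0.0473% and 0.0906% without those classes. At P0 and in the adult they were at 0.0440% and 0.386% with 5 or more Klf1 UMIs and 0.0450% and 0.409% within those clusters. Heme synthesis genes were at 0.12%, 0.16% and 0.20% thinned, 0.147%, 0.196% and 0.253% with 5 or more Klf1 UMIs, 0.145%, 0.1999% and 0.241% within those clusters and 0.202%, 0.268% and 0.397% without those classes. Globins were at 0, 0 and 0.02% thinned, 0.00280%, 0.0104% and 0.330% with 5 or more Klf1 UMIs, and 0.0110% and 0.354% at P0 and in the adult within those clusters. Interferon-stimulated genes were at 0.10%, 0.10% and 0.08% thinned, 0.0992%, 0.106% and 0.0790% with 5 or more Klf1 UMIs, 0.103%, 0.0976% and 0.0810% within those clusters and 0.188%, 0.190% and 0.140% without those classes. Within the erythroid-named cluster of P0, CD48 was positive on 14.1% and CD150 on 17.8% of cells.

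Ratios of P0 to E18.5 that crossed 1 were those of Mcpt8 (2.01 with 5 or more Klf1 UMIs, 4.28 within erythroid-named clusters, 2.00 under the rule at 15000 UMIs) and, under that rule, Sox6 (0.617), Trbc2 (0.617), Camp (0.308), Ms4a6c (0.771) and Slc45a3 (1.43). Adult to P0 under that rule were Pf4 (2.13), F13a1 (1.20) and Ms4a6c (1.08). Adult to E18.5, with 5 or more Klf1 UMIs, within those clusters and under that rule in turn, were Mpo (1.32, 2.80, 6.19), Ctsg (3.84, 7.65, 5.58), Ms4a3 (2.69, 2.84, 2.46) and Serpinb1a (2.21, 1.96, 5.16). Mcpt8 was at 2.35 within those clusters and 1.29 under that rule, Prss34 at 1.17 within those clusters and C1qa at 1.11 under that rule. That rule keeps 33 cells at E18.5, so its ratios of P0 to E18.5 for low genes such as Sox6, Trbc2 and Camp rest on very few UMIs.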
